A study of Mus musculus with 2 samples.

Results

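Immediate early genes are genes that a cell transcribes shortly after a stimulus, from transcription factors that are already present, so that no new protein is needed first. Growth factor, stretch and stress signals reach them through MAP kinases, which act on the serum response factor (Srf), its Elk partners and Creb1 at the promoters. Their mRNAs are short-lived, and in vessels they are known to respond to blood flow, to injury and also to the handling of tissue. The genes described here are *Fos*, *Fosb*, *Jun*, *Junb* and *Jund*, which encode the subunits of the AP-1 transcription factor, *Egr1* and *Atf3*, which encode further transcription factors, *Ier2*, which encodes a nuclear protein, *Dusp1*, which encodes a phosphatase that switches MAP kinases off, and *Zfp36*, which encodes an RNA-binding protein that speeds the decay of AU-rich mRNAs. All 10 were chosen by name, and each matched 1 Ensembl identifier among the 22695 identifiers with a symbol in the P6 library and the 21745 in the P15 library.

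The libraries were made from retinal endothelial cells of wild-type C57BL/6 mice at postnatal day 6 (P6), when the vascular plexus is still growing, and at postnatal day 15 (P15). A flow sort kept cells positive for CD31, carried by endothelium, and negative for CD45, carried by leukocytes (CD31+ CD45-), and each age was 1 droplet library, in which every captured mRNA molecule carries a unique molecular identifier (UMI). The sources used here do not give the number of animals pooled. The study's methods describe digestion of dissected retinas with collagenase type II before staining and sorting, with no genetic change or treatment that set the ages apart. Since each age went through its own digestion, sort and capture, age and handling cannot be told apart between the libraries, and there are no replicates to give an error between samples. Intervals below are 95% intervals that cover counting error only, levels are in CPM (UMIs of a gene among all UMIs of the cells, scaled to 1000000), ratios are called by their size alone (at least 1.5-fold), and no p-value was computed from cells.

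After the exclusion criteria of the study were applied, 1424 of 1984 P6 barcodes and 1644 of 2141 P15 barcodes remained, with 7648189 and 7371443 UMIs and medians of 4985.5 and 4214.5 UMIs per cell. Published cluster names could be attached to all 1560 P6 cells that have them and to 438 P15 cells, the first ones in the copy of the list used here and not a random draw. Cluster values use all named cells, including those that these criteria would have removed, whereas values for a whole library use the cells that met them. In all, 7 cell barcodes occurred in both libraries, and 9 P6 and 12 P15 cells held UMIs of both *Xist* and Y-linked genes, as a doublet of cells from both sexes would. The endothelial identity held at both ages, with *Cldn5*, a tight junction gene, at 5584 and 9955 CPM and *Pecam1*, which encodes CD31, at 527 and 679. Of the other endothelial markers *Erg* was at 54.3 and 95.9, while *Cdh5* (539 and 506), *Kdr* (390 and 362) and *Tek* (154 and 142) were slightly lower at P15. The other cell types were not equally rare at both ages. The 6 pericyte markers summed to 10.9 CPM at P6, where 5 had a UMI and *Cspg4* had none, and to 270 CPM at P15, where all 6 had one, and the 4 red blood cell markers to 22.6 and 172. Defining markers of excluded types were at 0 where the filter removed their cells (*Neurod1* and *Hbb-bt*), and the 4 leukocyte markers with a row summed to 1.31 and 2.03. The part of these cells in the results was not tested, apart from the values given below without the cells that carry such markers.

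Promoters of 8 of the 10 genes were taken from the RefSeq promoter table for GRCm38.p6, of which the 250 bases before each transcription start were used. *Egr1* and *Ier2* were not among these 8. A CArG box, the site that serum response factor binds, occurred in the *Zfp36* promoter, and the cyclic AMP response element TGACGTCA, the site of Creb1 and Atf proteins, occurred in the *Dusp1* promoter. None of the 8 held the AP-1 site TGACTCA. Over all 32851 promoters of the table, searched on both strands in the same 250 bases, 1.47% held a CArG box, 1.55% held TGACGTCA and 4.46% held TGACTCA. These are matches of letters only, and sites farther upstream lie outside the window. The promoters of *Fos* and *Junb* are shown because these genes had the closest relation between cells at P15, and those of *Dusp1* and *Zfp36* because they hold the matches, which are in capitals. Each is written 5′ to 3′ on the strand of its gene. The *Zfp36* stretch and the end of the *Dusp1* stretch were kept short because GENCODE M21 places neighbouring bases in untranslated exons of longer transcripts.
*Fos*, chr12:85473740-85473889, plus strand: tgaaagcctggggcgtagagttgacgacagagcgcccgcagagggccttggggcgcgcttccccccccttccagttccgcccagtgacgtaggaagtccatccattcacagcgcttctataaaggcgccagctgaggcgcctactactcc
*Junb*, chr8:84978749-84978898, minus strand: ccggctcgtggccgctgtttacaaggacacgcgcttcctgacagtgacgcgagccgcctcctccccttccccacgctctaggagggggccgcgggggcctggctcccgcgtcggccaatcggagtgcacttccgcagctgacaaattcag
*Dusp1*, chr17:26508520-26508622, minus strand: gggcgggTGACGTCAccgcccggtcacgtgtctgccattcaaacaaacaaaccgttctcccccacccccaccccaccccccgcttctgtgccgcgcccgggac
*Zfp36*, chr7:28379267-28379296, minus strand: ccaggccgccCCATAAAAGGagaaagctcc

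In the GENCODE M21 annotation of GRCm38, *Fos* spans chr12:85473890-85477273 and *Fosb* chr7:19302696-19310051. *Jun* spans chr4:95049034-95052222, *Junb* chr8:84974484-84978718 and *Jund* chr8:70698949-70700616. *Ier2* spans chr8:84661331-84662852, *Zfp36* chr7:28376784-28380253, *Atf3* chr1:191170296-191218039 and *Dusp1* chr17:26505590-26562128, while *Egr1* lies on chromosome 18. *Junb*, *Jund* and *Ier2* are thus on the same chromosome, as are *Fosb* and *Zfp36*.

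The first comparison asks how the level of these genes differed between the growing plexus at P6 and the more mature vessels at P15. All 10 genes were higher in the P15 library, and 9 of them by at least 2-fold. Summed, they made up 953 CPM at P6 (95% interval 931 to 975) and 3539.5 at P15 (3497 to 3583), a ratio of 3.71 (3.62 to 3.81). Of the 9382 genes with at least 100 UMIs over both libraries, 17.5% were at least 1.5-fold higher at P15 and 10.5% at least 1.5-fold lower, and the median ratio was 1.09. Against that background 9 of the 10 genes were past 1.5-fold upward and none downward. At 2-fold the background was 6.24%, and the same 9 genes were past it. Such genes are known to answer to the handling of cells, and the part of dissociation in this difference was not tested.

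Among the AP-1 genes, *Fos* was at 66.3 CPM at P6 and 332 at P15, a ratio of 5.01 (4.55 to 5.52), which became 3.30 when every barcode was counted. *Fosb*, its close relative, was at 13.7 and 71.4, a ratio of 5.20 (4.21 to 6.47). Over all 9382 genes only 0.810% had a higher ratio than *Fos*, and 0.789% a higher ratio than *Fosb*. *Jun*, the partner with which Fos proteins form the classical AP-1 dimer, was at 134 and 622, a ratio of 4.63 (4.33 to 4.96). *Junb* was at 194 and 836, a ratio of 4.32 (4.08 to 4.57), and was the most abundant of the 10 genes at P15. *Jund*, which many cells express without a stimulus, was at 99.4 and 328, a ratio of 3.31 (3.05 to 3.59). The 3 *Jun* genes summed differed by 4.18-fold (4.02 to 4.35) and the *Fos* pair by 5.04-fold (4.62 to 5.51), with intervals that do not overlap.

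The other transcription factors differed from each other. *Egr1*, a zinc finger factor, was at 26.3 CPM at P6 and 87.4 at P15, a ratio of 3.32 (2.83 to 3.91). *Atf3*, a factor known to be induced by stress, was at 15.7 and 21.6, a ratio of 1.37 (1.08 to 1.76). *Atf3* was the only member under 1.5-fold, and 24.5% of all genes had a higher ratio. It was the least abundant member at P15, while at P6 its interval overlapped those of *Fosb* and *Zfp36*.

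*Dusp1*, the phosphatase gene, had the largest ratio of the 10 genes at 6.15 (5.66 to 6.68), from 88.0 to 541 CPM, and 49 of the 9382 genes had a higher one. *Zfp36* was at 18.6 and 53.2, a ratio of 2.86 (2.36 to 3.5). *Ier2* was at 297 and 646, a ratio of 2.18 (2.07 to 2.29), the smallest after *Atf3*. *Ier2* was the most abundant member at P6 and gave 31.2% of all UMIs of the 10 genes, but 18.3% at P15. Without *Ier2* the ratio of the sum was 4.41 (4.28 to 4.55), and with any other single gene left out it lay between 3.47 (without *Dusp1*) and 3.76 (without *Jund*).

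UMIs count molecules, so the genes were ordered without a correction for their length. From high to low, the order at P6 was *Ier2*, *Junb*, *Jun*, *Jund*, *Dusp1*, *Fos*, *Egr1*, *Zfp36*, *Atf3* and *Fosb*, where *Jund* and *Dusp1*, and *Zfp36*, *Atf3* and *Fosb* as neighbours, had overlapping intervals. At P15 the order was *Junb*, *Ier2*, *Jun*, *Dusp1*, *Fos*, *Jund*, *Egr1*, *Fosb*, *Zfp36* and *Atf3*, with overlapping intervals for *Ier2* and *Jun* and for *Fos* and *Jund*.

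**Figure D1:**
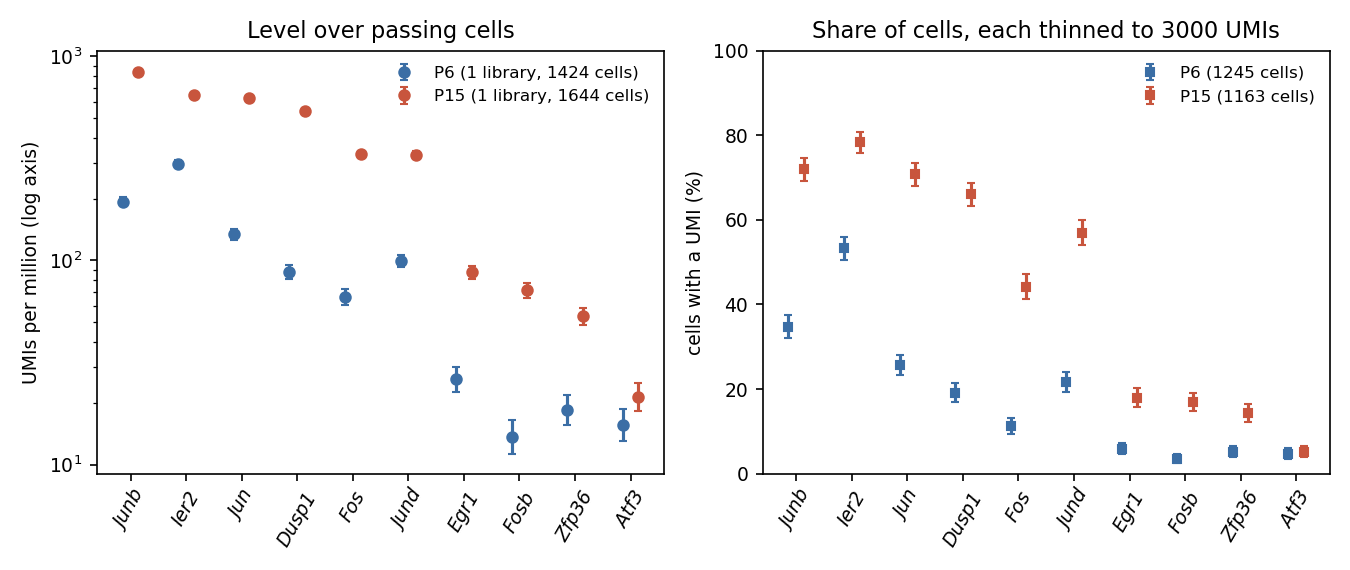
Level of each gene in CPM (left, log axis) and share of cells with at least 1 UMI after every cell was thinned to 3000 UMIs (right, percent), for the P6 and P15 libraries with 95% Poisson or Clopper-Pearson intervals. For 9 genes the P15 point lies well above the P6 point on both panels, while the shares of *Atf3*, 4.66% and 5.07%, coincide.

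The difference was seen in the number of cells with a UMI as well as in the number of UMIs per cell. *Fos* had a UMI in 15.1% of P6 cells (13.3 to 17.1) and 46.7% of P15 cells (44.3 to 49.2), and *Dusp1* in 28.8% and 69.7%. P15 cells were the shallower ones. With every cell thinned to 3000 UMIs (1245 P6 and 1163 P15 cells, 179 and 481 shallower cells left out), the shares for *Fos* were 11.2% and 44.2%, for *Jun* 25.6% and 70.8%, and for *Ier2* 53.3% and 78.3%. Where present, *Junb* averaged 2.20 UMIs per cell at P6 and 5.13 at P15. No cell type in these libraries is known to lack the genes, so a background share from free RNA in the droplets could not be set, and the shares by cluster below are given beside their depth.

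*Fos* was carried by few cells at P6. The 10% of cells with most *Fos* UMIs held 85.6% of them at P6, with up to 34 in a cell, and 53.1% at P15, with up to 21. At the thinned depth its variance beyond Poisson counting, relative to the squared mean, was 12.9 at P6, above 99.5% of 5105 genes whose median was 0.175, and 1.76 at P15, above 97.2% of 5149 genes. By the same share, which falls as a gene becomes more abundant, *Ier2* was lowest, with 34.5% and 32.3% of its UMIs in the top 10% of cells. By the variance at thinned depth *Jund* was lower than *Ier2* at P15, at 0.35 and 0.37. Over the sum of the 10 genes, 59.6% of P15 cells lay above 2041 CPM, the level that 10% of P6 cells exceeded, and medians per cell were 666 and 2633.

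A P6 cell held UMIs of a median of 2 of the 10 genes and a P15 cell of 5. At least 5 of the genes were present in 15.7% of P6 cells and 56.0% of P15 cells, and in 6.02% and 49.96% after thinning to 3000 UMIs. No UMI of any of the genes was found in 9.62% of P6 cells (8.14 to 11.3) and 2.86% of P15 cells (2.11 to 3.78).

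**Figure D2:**
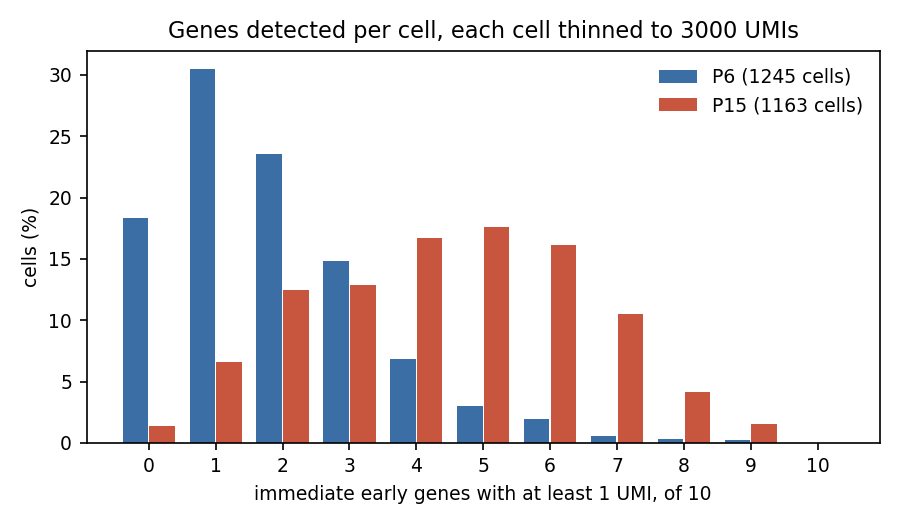
Share of cells (percent) by the number of the 10 genes with at least 1 UMI, after thinning every cell to 3000 UMIs, for 1245 P6 and 1163 P15 cells. P6 cells peak at 1 gene (30.4%) and P15 cells at 5 genes (17.6%), and both distributions are single broad peaks that overlap.

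The level was little related to depth at P6 and more so at P15. Across 3 equal groups of cells from the shallowest to the deepest, the sum was 958, 957 and 948 CPM at P6 and 3045, 3645 and 3637 CPM at P15. Across cells the mean of the log-transformed levels of the 10 genes had an r of 0.117 at P6 and 0.275 at P15 with log UMIs per cell. This mean went with a lower share of mitochondrial UMIs, with r of -0.26 and -0.37. It also went with a lower share of ribosomal protein UMIs, with r of -0.21 and -0.31. Both shares are parts of the total that the level is divided by. The medians of these shares also differed between the libraries, with 1.30% and 1.06% mitochondrial and 17.1% and 9.48% ribosomal protein UMIs. With both kinds of gene taken out of the total, the ratio of the sums was 3.39.

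Barcodes that the filter removed showed the genes too. P6 barcodes with a UMI of *Neurod1*, a photoreceptor and amacrine lineage factor, held 1941 CPM of the 10 genes, with *Jund* at 528 and *Fos* at 403, above every P6 endothelial cluster but the Arterial one in the case of *Fos*. At P15 only 17 such barcodes were found, and they held 3119 CPM, less than the 3539.5 of the cells used. Barcodes with *Cd63* held 1603 CPM at P6 (220 barcodes) and 3481 at P15 (193). Those with over 3500 genes held 1238 (329) and 3280 (199). Both groups were thus above the 953 CPM of the P6 cells used and below the level of the P15 cells used. Those with *Hbb-bt* were below it at both ages, at 796 (13) and 3264 (131). Barcodes with over 5% mitochondrial UMIs, a sign of damaged cells, were low at both ages, with 520.2 CPM at P6 and 1451 at P15. Without cells that carry a UMI of any of 23 markers of pericytes, neural retina, glia, leukocytes or red blood cells, the sum was 925 in 557 P6 cells and 2931 in 273 P15 cells, a ratio of 3.17. *Glul*, listed as a glial marker, was left out of that step because it made up nearly all of the glial sum, which was 368 CPM at P6 and 1226 at P15 and lay at 1564 and 3443 CPM in the Arterial cells. *Rbpms* was kept although it made up 159 of 174 CPM of the neural markers at P6 and 148 of 207 at P15, and 54.8% of P6 cells held a neural marker UMI, so the step removed many cells through that gene.

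The next comparison asks where in the vascular tree the genes were expressed. The study's 9 clusters follow the vessels from Arterial through Cap-Arterial (the arterial side of the capillaries), Capillary and Cap-Venous to Venous cells, with Tip and Stalk cells of the sprouting front and the Primitive and Proliferative clusters beside them. All clusters of a library shared 1 digestion, sort and capture. They were made from the expression of these same cells, so what follows is a description and not a test. The sum of the genes was highest in Arterial cells and lowest in Primitive cells at both ages.

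At P6 the sum was 3138 CPM (2895 to 3395) in 40 Arterial cells and 1694 (1607 to 1784) in Cap-Arterial cells, followed by 1202 in Venous, 1050 in Tip, 1016 in Cap-Venous and 890.1 in Stalk cells. Capillary cells had 715 CPM, Proliferative cells 689.7 and Primitive cells 415 (375 to 458), 7.56-fold below the Arterial cells (6.65 to 8.60). The intervals of Venous and Tip, of Tip and Cap-Venous, and of Capillary and Proliferative cells overlapped. Each of the 10 genes was highest in Arterial and lowest in Primitive cells, as were 23.5% and 36% of the 8019 genes with at least 100 UMIs in labelled cells. The Arterial interval overlapped that of the next cluster for *Fosb*, *Egr1*, *Atf3* and *Zfp36*. The Primitive interval lay clear of the next cluster only for *Fos*, *Jun* and *Junb*. All 10 were at least 1.5-fold higher in Arterial cells than in all other labelled cells (background 21.9%), and 8 were in Cap-Arterial cells (13.8%), the exceptions being *Fosb* at 1.46 and *Atf3* at 1.07. In the 42 Venous cells 5 were (11%), among them *Fosb* at 2.25 and *Egr1* at 2.05. All 10 were at least 1.5-fold lower in Primitive cells (39.4%), and 4 were in Capillary cells (10.6%). The intervals of *Atf3* held 1 in both Arterial (0.52 to 3.88) and Primitive cells (0.22 to 1.04).

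At P15 the order began and ended alike, with 6071 CPM (5402 to 6801) in 11 Arterial cells, 4224 (3996 to 4462) in Cap-Arterial cells and 1146 (965 to 1351) in 36 Primitive cells. Without cells that carry markers of other types the Primitive level was 666 CPM in 8 cells. Between them lay Cap-Venous cells at 3436, Stalk at 3266, Tip at 2942, Capillary at 2903 and Proliferative cells at 2703, of which each neighbouring pair had overlapping intervals. The 2 labelled Venous cells gave 34 UMIs and are left out. Of the 10 genes, 8 were highest in Arterial cells (background 23.9%) and 7 were lowest in Primitive cells (21.6%), of 3695 genes. The Arterial interval lay clear of the next cluster only for *Fos* and *Junb*, and the Primitive one only for *Jun*, *Junb* and *Dusp1*. At least 1.5-fold higher than in the other labelled cells were 8 genes in Arterial cells (18.7%) and *Dusp1* alone in Cap-Arterial cells (8.47%), and all 10 were at least 1.5-fold lower in Primitive cells (29.1%). The Arterial ratios of *Fosb* (0.94 to 4.50), with 8 UMIs, and *Zfp36* (0.68 to 5.14), with 5, had intervals that held 1. So did the Primitive ratios of 3 genes. These were *Egr1* (0.12 to 1.18) and *Zfp36* (0.17 to 1.70), with 4 UMIs each, and *Atf3* (0 to 1.46), with none. *Atf3* also had fewer than the 100 UMIs in labelled P15 cells that the background genes had. *Jund* was highest in Tip cells at 461 CPM, with an interval that overlapped the one for Arterial cells. *Atf3* had no UMI in the 11 Arterial cells, which allows up to 61.1 CPM. With labels predicted for the other P15 cells from their nearest labelled neighbours, 42 Arterial cells had 6115 CPM and 141 Primitive cells 1095.

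**Figure D3:**
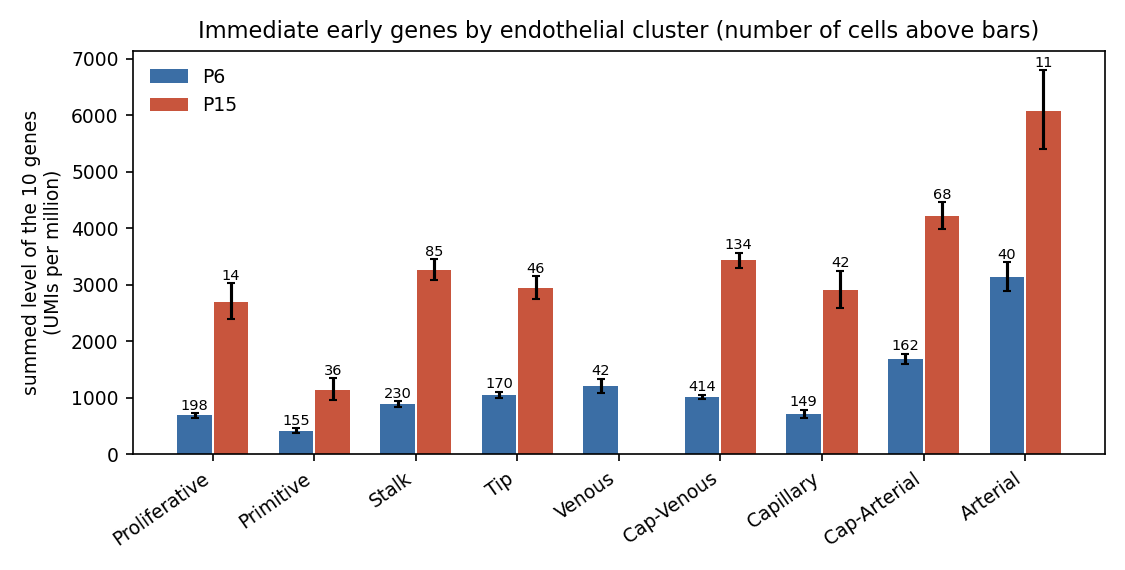
Summed level of the 10 genes (CPM, linear axis from 0) in each published cluster at P6 and P15, with 95% Poisson intervals and the number of cells above each bar. Arterial cells are highest and Primitive cells lowest at both ages, and the P15 bar is taller in each of the 8 clusters that have both bars. The 2 Venous cells at P15 are not drawn.

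Apart from *Fosb*, which Primitive cells lacked, *Fos* spread most between P6 clusters. At P6 it was at 425 CPM in Arterial, 158 in Cap-Arterial, 120 in Venous and 78.5 in Cap-Venous cells, and then at 57.0 in Stalk, 48.3 in Tip, 32.8 in Proliferative, 28.7 in Capillary and 6.37 in Primitive cells. The share of cells with a *Fos* UMI went from 3.87% of Primitive cells (1.43 to 8.23) to 42.5% of Arterial cells (27.0 to 59.1), although the Primitive cells were the deeper ones with medians of 5148 and 4400 UMIs. At P15 *Fos* was at 876 in Arterial and 80.7 in Primitive cells.

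*Jun* went from 587 CPM in P6 Arterial cells through 304 in Cap-Arterial cells to 41.4 in Primitive cells. *Dusp1* was at 324, 169.8 and 32.9 in the same clusters, and *Zfp36* at 65.8, 35.9 and 5.31. *Jund* was at 354 CPM in Arterial, 185 in Cap-Arterial and 46.7 in Primitive cells. *Junb* at P6 was at 516 in Arterial, 310 in Cap-Arterial and 262 in Tip cells, where the last pair had overlapping intervals, and at 71.1 in Primitive cells. *Egr1* at P6 was at 70.9 in Arterial and 52.7 in Venous cells, with overlapping intervals, and at 4.25 in Primitive cells.

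*Ier2* differed less between clusters, from 719 CPM in P6 Arterial to 199 in P6 Primitive cells. Of those Primitive cells, with a median of 5148 UMIs, 64.5% still held an *Ier2* UMI. *Fosb* had no UMI in Primitive cells at either age, 0 of 155 cells at P6, which allows up to 3.18 CPM, and 0 of 36 at P15, which allows up to 24.2. The P15 Primitive cells were shallow, with a median of 2704.5 UMIs against 5154 in P15 Arterial cells. *Atf3* at P6 ranged only from 8.49 in Primitive to 25.3 in Arterial cells, and every pair of neighbours in its order had overlapping intervals. Proliferative cells at P6 were at least 1.5-fold low for 7 of the genes, among them *Egr1* at a ratio of 0.36 and *Fos* at 0.43 to the other cells, where the background was 11%.

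**Figure D4:**
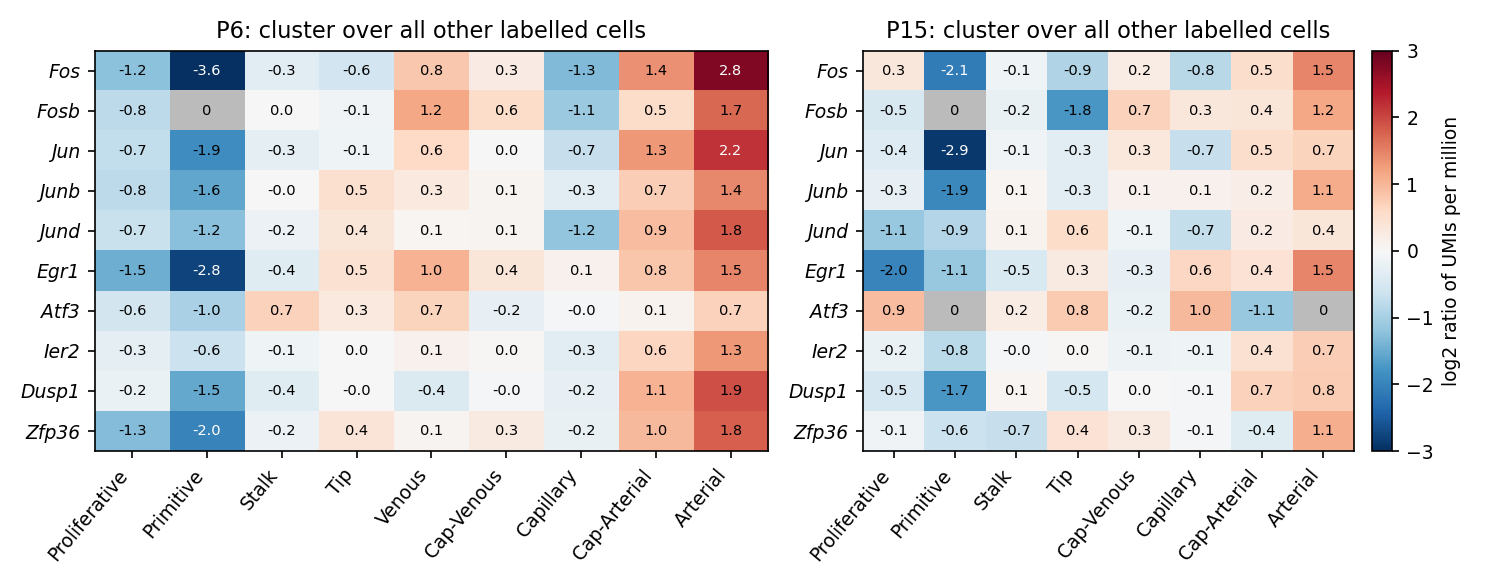
Log2 ratio of CPM in a cluster to all other labelled cells of the same library, for each gene, at P6 (9 clusters) and P15 (8 clusters of at least 10 cells); grey cells marked 0 had no UMI. The Arterial column is above 0 for all 10 genes at P6 and the Primitive column below 0, while at P15 *Atf3* departs from the other genes in the Arterial and Cap-Arterial columns.

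The difference between the libraries was then taken within clusters. Within each of the 6 clusters with at least 15 labelled cells in both libraries the sum was higher at P15, by 2.49-fold in Cap-Arterial cells (2.31 to 2.69), the lowest, to 4.06-fold in Capillary cells (3.48 to 4.73), the highest, with a median of 3.09. Weighting these clusters in both libraries by their cell numbers at P6 gave 976 and 3100.2 CPM, a ratio of 3.18. *Fos*, *Jun*, *Junb*, *Jund*, *Egr1*, *Ier2* and *Dusp1* were at least 1.5-fold higher at P15 in all 6 clusters, and *Zfp36* in 5. *Dusp1* ranged from 4.02-fold in Tip to 7.04-fold in Stalk cells, and *Ier2* from 1.88-fold in Cap-Arterial to 2.43-fold in Capillary cells. *Fos* ranged from 2.82-fold in Cap-Arterial cells (2.21 to 3.62) to 12.7-fold in Primitive cells, where it rested on 6 and 10 UMIs (4.17 to 42.4). *Fosb* was at least 1.5-fold higher in the 5 clusters where it was seen. Among these ratios past 1.5-fold, some intervals held 1. They were those of *Jun* in Primitive (0.87 to 3.98) and *Fosb* in Tip cells (0.57 to 4.11). The others were those of *Zfp36* in Stalk (0.87 to 3.75) and Capillary cells (0.72 to 9.13). The share of all genes past 1.5-fold within a cluster was not computed, so these counts have no background. *Atf3* was above 1 in 3 of the 6, between 0.59-fold in Cap-Arterial cells (0.109 to 2.12) and 2.47-fold in Capillary cells (0.545 to 9.23), and had 8 UMIs at P6 and none at P15 in Primitive cells.

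The genes also went together from cell to cell within a library. These correlations are of log-normalised values over cells that share a library and differ in depth and in vessel type, and they are descriptions. All 45 pairs of genes had a positive Pearson r at both ages, with a median of 0.182 at P6 and 0.260 at P15, and 40 of 45 were higher at P15, where more UMIs were counted per gene. Other pairs of genes were not counted in this way. Over 4740 genes outside the list, the median r with the mean of the 10 genes was 0.0205 at P6 and 0.0358 at P15. The closest pair at P6 was *Fos* and *Fosb* with r of 0.389, followed by *Fos* and *Junb* with 0.376. At P15 it was *Fos* and *Junb* with 0.549, then *Jun* and *Junb* with 0.492, and *Jun* and *Dusp1* with 0.460. *Atf3* was the least related member, with its weakest partners *Dusp1* at P6 (0.0626) and *Zfp36* at P15 (0.0301). Within Cap-Venous cells alone, the largest labelled cluster, the medians were 0.200 and 0.245, and after thinning to 3000 UMIs they were 0.123 and 0.191.

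**Figure D5:**
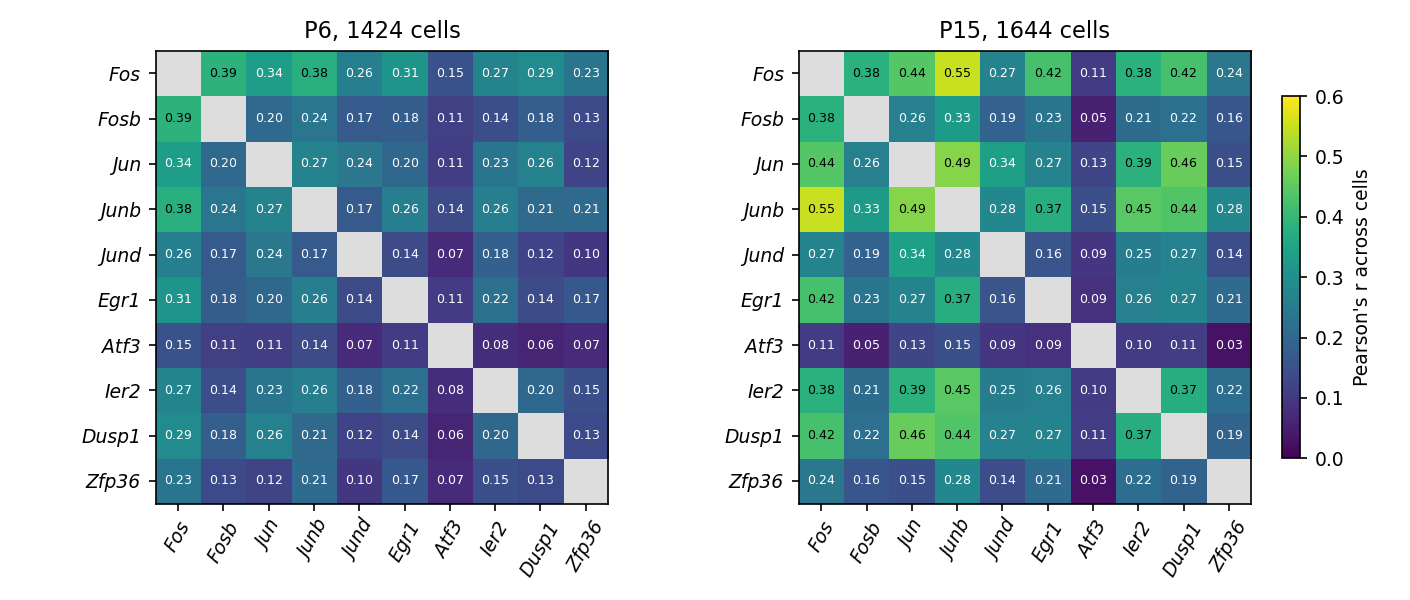
Pearson's r across cells between each pair of the 10 genes (log-normalised UMIs), in 1424 P6 and 1644 P15 cells. The *Fos*, *Jun*, *Junb*, *Ier2* and *Dusp1* block is the brightest at P15, up to 0.549 for *Fos* and *Junb*, and the *Atf3* row is the darkest at both ages.

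Genes outside the list were ranked by the lower of their correlations, in the P6 and in the P15 library, with the mean of the 10 genes over cells. The 4750 ranked genes were 4740 others with at least 200 UMIs in each library and the 10 members, which were kept without that floor. *Fosb*, *Zfp36* and *Atf3* had fewer than 200 UMIs at P6. Of the members, 9 fell among the top 25 (each compared with the mean of the other 9), and *Atf3* ranked 56. The closest genes outside the list were *Ppp1r15a*, which encodes a subunit of the phosphatase that restores translation after stress (0.376 and 0.450), and *Malat1*, a long non-coding RNA kept in the nucleus (0.338 and 0.381). *Plk2*, a kinase gene, followed with 0.322 and 0.391, and *Klf4*, a flow-responsive factor of endothelial cells, with 0.319 and 0.347. *Ccn1*, which encodes a secreted matrix protein, had 0.302 and 0.430, and *Btg2*, an antiproliferative gene, 0.295 and 0.544. *Klf2*, the best known flow-responsive endothelial factor, had 0.310 and 0.289, and *Adamts1*, *Btg1* and *Ier3* completed the first 10. *Malat1* was itself 2.45-fold higher at P15, at 8741 and 21398 CPM, and *Adamts1*, which encodes a secreted protease, 4.18-fold higher.

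Of the top 25 of the 4750 genes, 10 belonged to a list of 45 other immediate early genes. None came from a list of 12 heat shock genes, but so short a list would seldom reach the top 25 by its share alone. From both lists only genes with at least 200 UMIs in each library were ranked. This left out *Hspa1a* and *Hspa1b*, among others, with 33 and 3 UMIs at P6. The closest heat shock genes were *Dnaja1* at rank 60, *Hspb1* at 152 and *Dnajb1* at 198. Ranked instead by the higher of both correlations, the most negative relations were with *Tmsb10*, which encodes an actin-binding thymosin (-0.30 and -0.25), with *Rpl38*, a ribosomal protein gene (-0.22 and -0.21), and with *mt-Cytb*, a mitochondrial gene (-0.27 and -0.20).

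The other immediate early genes were mostly higher at P15 as well. Of the 45, 44 had a row in both libraries and 32 had enough UMIs, of which 21 were at least 1.5-fold higher at P15 (17.5% of all genes) and 2 lower (10.5%), with a median ratio of 2.14 where that of all genes was 1.09. *Klf2* was at 581 and 2019 CPM, a ratio of 3.47 (3.36 to 3.59), *Klf4* at 83.3 and 264, and *Klf6*, a related factor, at 72.7 and 238. *Plk2* was at 419 and 989, and *Nfkbia*, which encodes the inhibitor of NF-kappaB, at 261 and 557. *Rhob*, which encodes a small GTPase, was at 338 and 524, and *Dusp6*, which encodes an ERK phosphatase, at 260 and 344, a ratio of 1.32.

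The largest ratios in that list were those of *Ccn2*, which encodes a secreted matrix protein, at 4.95 (3.93 to 6.28), *Btg2* at 4.38 (3.98 to 4.82) and *Nr4a2*, an orphan nuclear receptor gene, at 4.06 (3.03 to 5.52). *Ppp1r15a*, *Ier3*, *Ccn1* and the stress genes *Gadd45a*, *Gadd45b* and *Gadd45g* lay between 2.81 and 3.55, and *Ier5*, *Nr4a1*, *Socs3* and *Per1* between 2.05 and 2.47. The exceptions were *Dusp2*, which encodes a nuclear ERK phosphatase, at 121 and 39.2 CPM, a ratio of 0.33 (0.28 to 0.37), and *Myc*, at 32.6 and 11.1, a ratio of 0.34 (0.26 to 0.44). *Dusp2* and *Myc* were also low in P6 Arterial cells, at 0.40 and 0.45 of the level in other cells. Summed over the list, P6 Arterial cells had 7237 CPM and Primitive cells 1613, and at P15 they had 12143 and 3769. The study used *Klf2* in naming the clusters, so its own level there is not independent of the names.

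Kinases and factors upstream of these genes were past 1.5-fold about as often as genes in general. Of 20 names in that list 18 genes were found and 17 had enough UMIs, of which 3 were at least 1.5-fold higher at P15 (17.5% of all genes) and none lower (10.5%), with a median of 1.17. *Mapk3*, which encodes ERK1, was at 194 and 297 CPM, a ratio of 1.53 (1.43 to 1.64). *Mrtfb*, a coactivator of serum response factor, was at 185 and 431, a ratio of 2.33 (2.19 to 2.49). *Srf* itself was at 22.2 and 25.6, a ratio of 1.15 (0.93 to 1.43), and *Creb1* had a ratio of 0.83. *Elk3*, a partner of serum response factor, was at 234 and 196. *Map2k2*, which encodes a kinase that activates ERK, was at 149 and 189. *Mapk3* was 2.62-fold higher in Arterial cells than in the others at P6, at 496 CPM, and 2.11-fold at P15.

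Heat shock genes, which are known to rise when tissue is dissociated, were measured beside the members. Of 12 genes in that list, 11 had enough UMIs, of which 4 were at least 1.5-fold higher at P15 (17.5% of all genes) and 2 lower (10.5%), with a median of 0.994 and a sum of 5178 CPM at P6 and 4717 at P15. The inducible chaperone genes *Hspb1* (39.5 and 187, a ratio of 4.73), *Hspa1a* (4.31 and 15.1, 3.49) and *Dnajb1* (42.1 and 94.3, 2.24) were among those higher at P15. *Dnaja1* was at 280 and 474. The abundant members *Hspa8* (1879 and 1804) and *Hspa5* (493 and 490) differed by under 1.5-fold, and so did *Hsp90ab1* (1775 and 1259). *Hspe1* at 0.43 and *Hspd1* at 0.61, the mitochondrial chaperonin genes, were lower. *Hspa8* and *Hsp90ab1* made up most of the heat shock sum. Across P6 clusters that sum lay between 4809.6 in Cap-Arterial and 5849.5 in Proliferative cells, with 4989.9 in Arterial and 5803 in Primitive cells. At P15 it was 5297 in 11 Arterial, 5360 in 14 Proliferative and 4632 in 36 Primitive cells. Single genes differed in their order. *Hspa1a* was 7.97-fold higher in P6 Arterial than in other cells and 4.41-fold at P15, from 35 and 32 UMIs in all labelled cells. *Dnaja1* was 1.42-fold and 1.33-fold higher there. *Hspe1* and *Hspd1* in P6 Arterial cells were at 0.70 and 0.69 of the level in other cells. The part of dissociation in the levels of the immediate early genes was not tested.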

How the data were processed

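Single-cell RNA sequencing was measured in 1 library per age. The authors deposited UMI counts per gene and cell barcode, without normalization, per the file headers. The labels' processing notes name Seurat 3.0 and mm10, and the aligner and counter are not given in the sources used here. Genes were matched by Ensembl identifier without version to GENCODE M21 symbols, and a gene without a row was not taken as 0. Following the study's criteria, a cell was used when 200 to 3500 genes were detected, mitochondrial UMIs did not exceed 5%, and *Cd63*, *Hbb-bt* and *Neurod1* were all at 0. Doublets were not called but weighed by cells with *Xist* and Y-linked UMIs. Cluster names were joined by barcode from the study's source data, whose Primordial names appear here as Primitive and Proliferative. Total counts of the cells used and their intervals are in the report.

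Levels are CPM with exact Poisson intervals, shares have Clopper-Pearson intervals and ratios conditional binomial ones, all at 95%, and a count of 0 was bounded with 3 counts. PCR error is not covered. For correlations, UMIs per 10000 were incremented by 1 and log-transformed. Steps were tested on simulated data first. The 10 genes, the other lists and the rule for named genes (the 10 genes, the 5 most abundant of each other list and those past 2-fold, the 10 closest genes and cell type markers) were chosen with earlier results of these data known. Other genes named were picked after their values were seen. Some genes that the rule names are not reported here. Labels were predicted from 15 neighbours on 13 principal components computed without the 10 genes, with 75.3% (P6) and 82.2% (P15) of known labels recovered in 5-fold cross-validation. Alternatives were the cells used, thinning to 3000 UMIs, the total, the top 1% of cells, means per cell, labels and the measure of correlation. Added after the data were seen were the steps without marker-bearing cells and shared barcodes and the median over members. Python 3.11.15, numpy 2.4.6, pandas 2.3.3, scipy 1.17.1, scikit-learn 1.9.0 and matplotlib 3.10.9 were used.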

Additional observations from a re-analysis of the deposited data

Results flagged for a closer look

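Tip cells stood on opposite sides of the other labelled cells at the 2 ages. The sum of the 10 genes in Tip cells was 1.08-fold that of the others at P6 (1.02 to 1.15) and 0.87-fold at P15 (0.81 to 0.94), and for *Junb* the ratios were 1.39 (1.22 to 1.57) and 0.81 (0.68 to 0.95). The difference between the ages was not tested, and the intervals cover counting error only. The P15 values rest on 46 labelled cells, and with labels predicted for the rest they came to 1.05 (1.01 to 1.08) for the sum and 1.17 (1.09 to 1.26) for *Junb* in 163 Tip cells, on the same side as at P6.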

How the results depend on the processing

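The ratio of the summed genes between P15 and P6 stayed above 3-fold in every alternative. It was 3.40 over labelled cells, 3.19 over every barcode, 3.94 after thinning, 3.39 without mitochondrial and ribosomal protein genes in the total, 3.91 without the top 1% of cells, 3.17 without cells with markers of other types and 3.82 as the median over the genes. In each of 11 alternatives 9 genes were past the fold used, but 1 of these alternatives could not change the count. It lowered the floor to 20 UMIs, and all 10 genes had already passed the floor of 100. Over the 90 alternative ratios of single genes all were above 1, and for the genes other than *Atf3* all 81 were at least 1.5, while *Atf3* ranged from 1.17 to 1.49. *Fos* went from 5.01 to 3.30 over every barcode, and the P15 Primitive level from 1146 to 666 CPM without cells with markers of other types. The P6 Arterial to Primitive ratio of 7.56 became 6.54 without mitochondrial and ribosomal protein genes in the total, 5.88 without the top 1% of cells and 5.99 without cells with markers of other types. At P15 no Arterial cell lacked such markers, so no value could be given. Arterial, Cap-Arterial and Primitive cells were highest, next and lowest in every other alternative. The median within clusters lay between 2.82 and 3.34, and 8 of the 10 closest genes remained among the first 10 after thinning. The cause of these shifts was not tested. Depth limits *Fosb*, *Atf3*, *Egr1* and *Zfp36*, which rest on few UMIs in single clusters. No paired analysis was possible because each age is 1 library.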
